A study of Mus musculus with 6 samples.

Results

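The genes described here encode 9 endosomal and lysosomal proteases (the cathepsins Ctsa, Ctsb, Ctsc, Ctsd, Ctsh, Ctsl, Ctss and Ctsz, and legumain, Lgmn) and the inhibitor cystatin C (Cst3). They were chosen by symbol, and all 10 were found among the 35598 gene identifiers of each deposited table. The libraries were made from CAMs (CNS-associated macrophages), which reside at brain borders such as the meninges, the choroid plexus and the space around vessels. CAMs negative for CD3 and positive for CD11b, CD45 and CD206 were sorted from brains of male C57BL/6 mice with no further treatment or allele in the labels, 3 libraries at 2 months of age (young) and 3 at 18 months (aged). Whether libraries of 1 age stem from different animals is not in the labels, and p-values therefore reflect no more than the scatter of these libraries, possibly a technical one.

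Cathepsins are made as inactive proenzymes, sorted to acid endosomes and activated there. Most belong to the papain-like cysteine proteases, cathepsin D is an aspartic protease and cathepsin A a serine carboxypeptidase. In antigen-presenting cells they break down endocytosed protein and trim the invariant chain Cd74 from MHC class II molecules, the step for which cathepsin S is best known. Legumain cuts after asparagine and helps to mature other cathepsins. Cystatin C is a secreted inhibitor that binds papain-like proteases and, through another surface, legumain.

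The regulatory sequence before each start site is given first, because lysosomal genes are known to share E-boxes bound by the TFEB family, and macrophage genes carry sites for PU.1 and interferon regulatory factors. RefSeq promoters (GRCm38.p6, from 250 bases before to 50 after the start) were found for 8 of the 10 genes, in 10 entries; Ctsb and Ctsh were not among them. Both strands were searched for the E-box CACGTG, the PU.1-type site GAGGAAGT and an interferon-response type site (GAAA, any 2 bases, GAAA), motifs that do not overlap each other in these windows. The E-box was present in 4 of the 10 entries, 1 each for Ctsa, Ctsd, Ctsl and Lgmn, against 7.15% of the 32851 promoters in the table. By gene this is 4 of 8, against 8.09% of 27025 genes. The Lgmn match lies in the entry whose start is in no GENCODE M21 transcript, and the Lgmn entry whose start does lie in one has no match. The PU.1-type site was present in 2 entries (Ctsc and Ctss, 3.20% of all promoters) and the interferon-response type site in 1 (Ctss, 3.44%). Ctss, the most abundant protease, and Ctsd and Ctsa, with the E-box 2 times each, are shown beside Cst3, which had no match. Each run reads 5′ to 3′ on the gene's strand from 250 bases before the start to 12 after it, with matches in capitals.
Ctss: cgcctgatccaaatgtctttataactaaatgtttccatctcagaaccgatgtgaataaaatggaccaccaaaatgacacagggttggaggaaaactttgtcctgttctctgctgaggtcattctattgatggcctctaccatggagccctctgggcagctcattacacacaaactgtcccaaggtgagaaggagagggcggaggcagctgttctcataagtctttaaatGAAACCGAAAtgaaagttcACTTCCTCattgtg
Ctsd: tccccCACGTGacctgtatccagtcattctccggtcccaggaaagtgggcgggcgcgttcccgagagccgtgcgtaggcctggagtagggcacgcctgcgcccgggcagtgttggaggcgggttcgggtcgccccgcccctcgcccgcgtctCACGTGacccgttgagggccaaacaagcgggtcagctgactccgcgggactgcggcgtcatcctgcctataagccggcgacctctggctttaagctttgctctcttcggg
Ctsa: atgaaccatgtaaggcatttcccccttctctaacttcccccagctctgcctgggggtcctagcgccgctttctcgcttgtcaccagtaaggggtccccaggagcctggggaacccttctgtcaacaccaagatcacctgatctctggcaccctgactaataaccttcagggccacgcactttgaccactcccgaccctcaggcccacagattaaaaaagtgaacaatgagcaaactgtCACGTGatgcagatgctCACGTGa
Cst3: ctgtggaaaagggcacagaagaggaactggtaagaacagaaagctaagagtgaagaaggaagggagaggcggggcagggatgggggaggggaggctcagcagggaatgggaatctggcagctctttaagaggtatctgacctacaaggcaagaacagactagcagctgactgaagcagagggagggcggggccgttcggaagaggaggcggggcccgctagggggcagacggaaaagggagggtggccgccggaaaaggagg
The windows lie at chr3:95526536-95526797 (plus strand), chr7:142387816-142388077 (minus strand), chr2:164833523-164833784 (plus strand) and chr2:148875501-148875762 (minus strand). Counted from the start, the interferon-response type match of Ctss began at -21 and its PU.1-type match, on the opposite strand, at -2. The Ctsd matches began at -245 and -98, and those of Ctsa at -12 and 6. These are matches of letters and no binding was measured.

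The 6 libraries held 26605079 to 33306121 counts, and the 10 genes took 4.67% to 5.70% of them in young and 6.21% to 8.71% in aged libraries. Each of the 10 had at least 4875 counts in every library and all passed the filter on low counts. The sort was checked against markers. Mrc1, the gene of CD206, was at 2674 to 2940 CPM in young and 1182 to 2345 CPM in aged libraries. CPM are counts scaled to library size, after TMM normalization. Of the CD3 chain genes, Cd3e did not exceed 3.93 CPM, but Cd3d reached 59.4 CPM and Cd3g 66.5 CPM, both in aged replicate 1. Cd3g was also at 29.6 CPM in young replicate 1 and 13.0 CPM in young replicate 2. The summed level of 15 CAM markers was 25904.5 to 29027 CPM in young and 9527 to 18502 CPM in aged libraries, with 7 of 15 lower and 0 higher in every aged library. The 14 microglia markers summed to 5870 to 8407 CPM and 11152 to 18684 CPM, with 10 of 14 higher in every aged library and 0 at a count of 0 throughout. Over all genes tested, 7.54% were higher and 7.19% lower in every aged library. Among those averaging 50 CPM or more, the shares were 11.2% and 8.45%. Microglia also express most of the genes described here. Both sums were most extreme in aged replicate 2, but those of aged replicates 1 and 3 also lay outside the young range. In sorted bulk RNA, another mixture of cells and another amount of RNA per cell cannot be told apart, and the part of these markers in the results below was not tested. Astrocyte marker sums (47.4 to 57.5 and 71.6 to 251 CPM) and oligodendrocyte marker sums (155 to 184 and 203 to 426 CPM) were also higher in aged libraries, with 0 single genes of either list higher in every aged library. Erythroid marker sums (10100 to 30268 and 85.8 to 9862 CPM) and neuron marker sums (32.4 to 96.3 and 9.12 to 25.3 CPM) were lower in aged libraries. Of the single genes, 2 of 5 erythroid and 4 of 7 neuron genes were lower in every aged library. The erythroid sums of aged replicates 1 and 2 (9862 and 9075 CPM) lay close to that of young replicate 2 (10100 CPM). Neutrophil markers ranged from 3.71 CPM in aged replicate 3 to 37638.5 CPM in young replicate 1.

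The comparison asked how these transcripts differ between 2 and 18 months. All 10 fitted differences were toward higher levels in aged CAMs, with a median log2 fold change of 0.92 against -0.02 for all 10661 genes tested. None of the 10 passed at an adjusted p under 0.05 (edgeR's quasi-likelihood test, Benjamini-Hochberg over all genes), where 0.00938% of all genes were called. At an unadjusted p under 0.05, 7 of the 10 were higher and 0 lower. The background was 3.63% of all genes higher and 2.04% lower, and 8.59% and 3.38% of the 2189 genes averaging 50 CPM or more. The count of 7 was 2 in the DESeq2 Wald test, which called 0 of the 10, 2.19% of all genes as higher and 1.52% as lower. It was 8 in limma-voom and 9 in limma on log2(TPM + 1), with 0 of the 10 called in each (0.0107% of all genes called higher in the latter). Without any filter on counts, edgeR called 3 of the 10 higher (Ctsb, Ctss and Ctsd), with 0.225% of all genes called higher and 0.0485% lower. The count in edgeR was 4 without young replicate 1, young replicate 3 or aged replicate 3. In CPM, 6 of the 10 lay above the whole young range in all aged libraries and 0 below it, against 7.54% above and 7.19% below for all genes, and 11.2% and 8.45% for those averaging 50 CPM or more. The plot of levels by library shows these values.

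**Figure D1:**
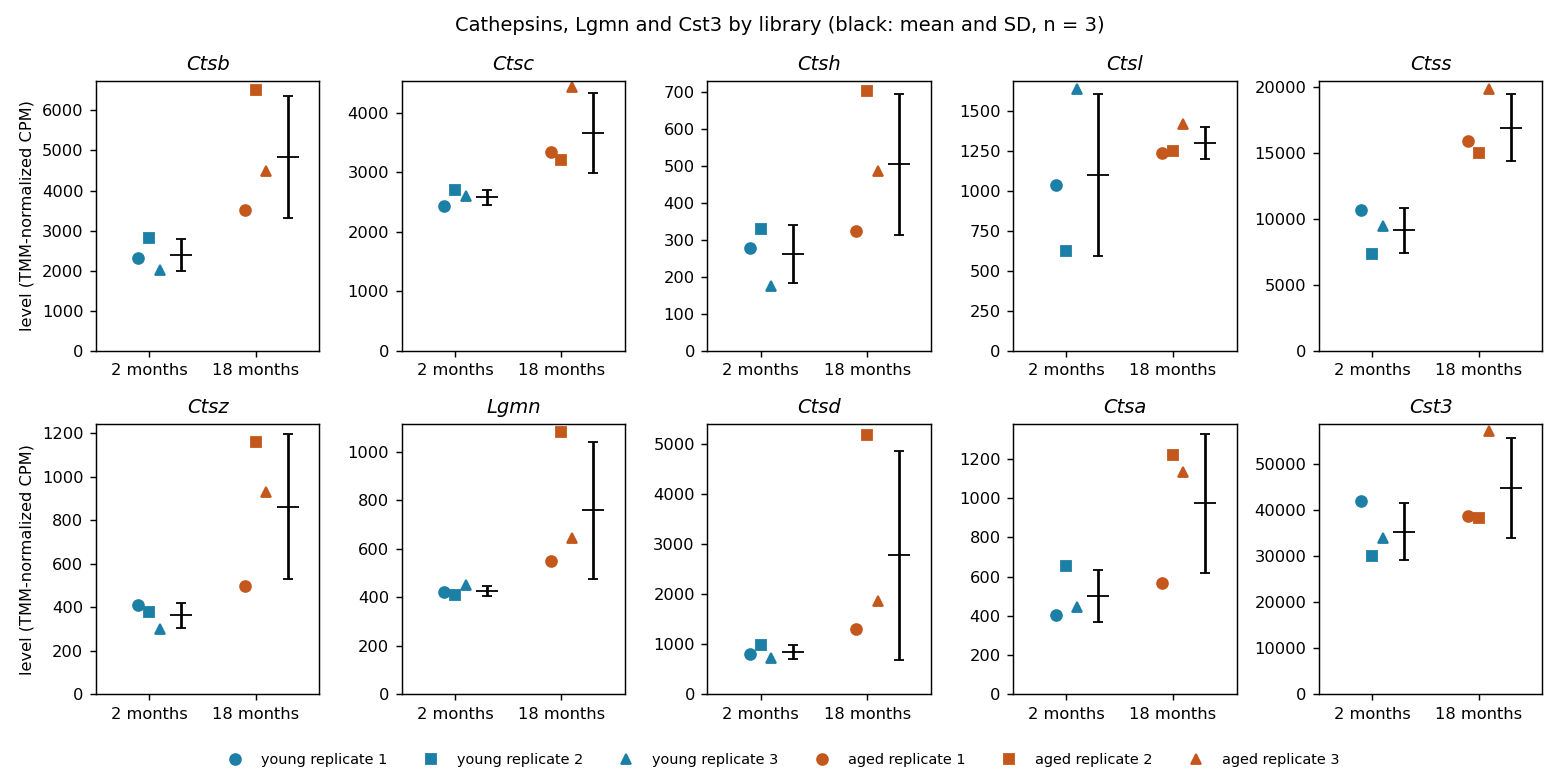
Level of each gene in TMM-normalized CPM (vertical axes, each starting at 0) at 2 and 18 months; points are libraries, and black bars show the mean and SD (n = 3). Ctsb, Ctsc, Ctss, Ctsz, Lgmn and Ctsd do not overlap between ages, and aged replicate 2 (squares) lies far above the other aged libraries for Ctsd.

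Ctss encodes cathepsin S, which stays active near neutral pH and cleaves the invariant chain. The gene (ENSMUSG00000038642.10, mm10 chromosome 3, 95526786 to 95556403) was at 10677, 7308 and 9421 CPM in young replicates 1 to 3 and at 15905, 14978 and 19797 CPM in aged replicates 1 to 3. Every aged library lay above every young one, and the means differed by more than the SD within either age. The mean went from 9135 ± 1702 to 16893.5 ± 2557 CPM (SD, n = 3 each), a log2 fold change of 0.89 (SE 0.27, edgeR unadjusted p = 0.00938, adjusted p = 0.637). Without aged replicate 2 the difference was 0.97.

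Ctsb encodes cathepsin B, an endopeptidase that also removes dipeptides from the carboxyl end. Young libraries held it at 2316, 2812 and 2016 CPM and aged ones at 3525, 6508 and 4482 CPM, without overlap. The log2 fold change was 1.02 (SE 0.31, edgeR unadjusted p = 0.00905, adjusted p = 0.632) and 0.75 without aged replicate 2. Ctsb (chromosome 14, 63122462 to 63145923) overlaps exons of Fdft1 on the opposite strand, a gene with 3736 counts in all against 683679 for Ctsb; the kit did not mark strand, so such reads cannot be assigned with certainty.

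Ctsz encodes cathepsin Z, a carboxypeptidase. In CPM, its young values were 411, 379 and 298 and its aged values 499, 1159 and 929, again without overlap. The log2 fold change of 1.25 (SE 0.36, edgeR unadjusted p = 0.00663, adjusted p = 0.619) was the largest among the papain-like genes. Ctsh, the gene of the aminopeptidase cathepsin H, was at 278, 328 and 174 CPM and at 322, 702 and 486 CPM. Aged replicate 1 lay just below young replicate 2, so the ages overlapped; the fit gave a log2 fold change of 0.95 with an SE of 0.39 (edgeR unadjusted p = 0.0341, adjusted p = 0.814).

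Ctsc and Ctsl showed smaller differences. Ctsc encodes cathepsin C, a dipeptidyl peptidase that activates serine proteases of granulocytes and killer cells. Its CPM was 2437, 2699 and 2598 in young against 3344, 3202 and 4434 in aged libraries. The groups did not overlap, yet the log2 fold change was 0.51 (SE 0.27, edgeR adjusted p = 0.920). Ctsl encodes cathepsin L, the endopeptidase that trims the invariant chain in thymic epithelium. It ranged from 624 to 1635 CPM among young libraries, which enclosed the aged values of 1239, 1247 and 1417 CPM. Its log2 fold change was 0.25 (SE 0.36, edgeR adjusted p = 0.993), and it turned to -0.03 without young replicate 2. The highest Ctsl value, in young replicate 3, came with the highest sum of choroid plexus epithelium markers (11852 CPM, against 8178 CPM in aged replicate 3 and at most 1380 CPM elsewhere); their part in it was not tested.

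Lgmn (chromosome 12, 102394084 to 102439813) was the most even gene in young CAMs, at 420, 410 and 449 CPM. Aged libraries were at 550, 1081 and 644 CPM, each above all young ones. The log2 fold change of 0.83 (SE 0.33, edgeR unadjusted p = 0.0310, adjusted p = 0.798) became 0.49 without aged replicate 2, the library that was high.

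The remaining proteases, of the aspartic and serine classes, are not cystatin targets. Ctsd (chromosome 7, 142375911 to 142388038), whose aspartic protease opens up many lysosomal substrates, reached 789, 985 and 714 CPM among young and 1287, 5161 and 1852 CPM among aged libraries. Groups did not overlap, but aged replicate 2 alone was several times above the other aged libraries. The log2 fold change of 1.74 (SE 0.49, edgeR unadjusted p = 0.00575, adjusted p = 0.619) was the largest of the 10 genes, and was 0.92 without that library (edgeR unadjusted p = 0.00503, adjusted p = 0.749). The aged mean then went from 2767 to 1570 CPM. Ctsd shares exons with Gm49369 on the same strand (5015 counts in all against 359728). Ctsa, the carboxypeptidase that also protects Glb1 and Neu1 in a lysosomal complex, was at 406, 652 and 447 CPM and at 568, 1224 and 1133 CPM, with aged replicate 1 inside the young range. The fit gave a log2 fold change of 0.96 with an SE of 0.37 (edgeR unadjusted p = 0.0271, adjusted p = 0.793). Its exons overlap those of Pltp on the opposite strand, with 17581 counts in all against 138305 for Ctsa.

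Cst3, the inhibitor (ENSMUSG00000027447.6, chromosome 2, 148871722 to 148875692), did not separate by age in CPM. Young libraries were at 42060, 30052 and 33984 CPM and aged libraries at 38800, 38380 and 57320 CPM. Aged replicates 1 and 2 lay inside the young range and aged replicate 3 above it. The mean went from 35365 ± 6122 to 44833 ± 10816 CPM (SD, n = 3 each), which gave a log2 fold change of 0.34 with an SE of 0.28 (edgeR adjusted p = 0.993). The difference was 0.13 without aged replicate 3.

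**Figure D2:**
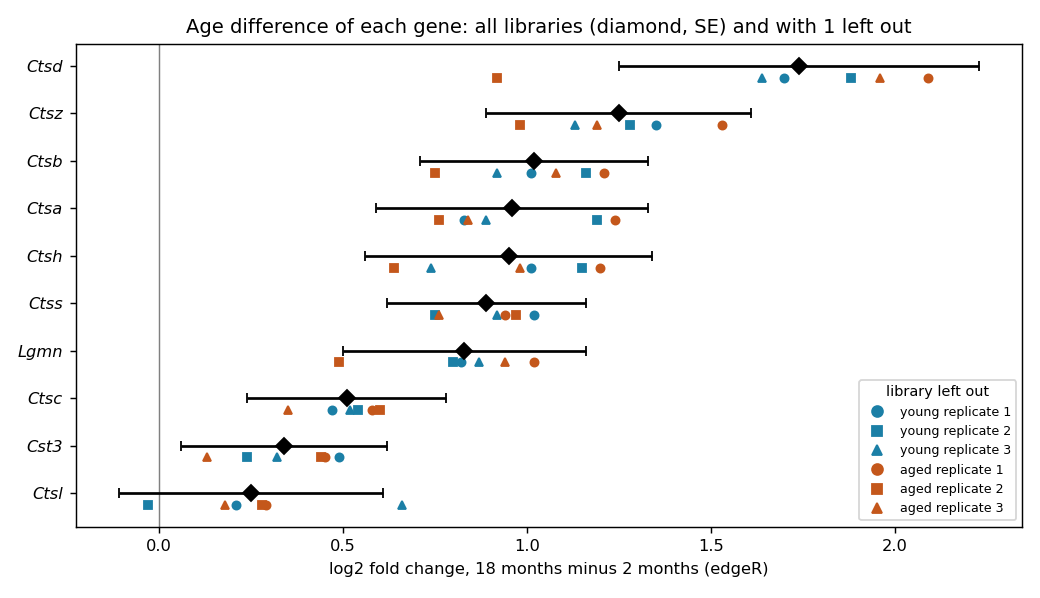
Log2 fold change of each gene, 18 months minus 2 months (horizontal axis), from edgeR on all 6 libraries (diamonds, bars ± SE) and with 1 library left out (coloured symbols). Ctsd falls from 1.74 to 0.92 without aged replicate 2, and Ctsl reaches -0.03 without young replicate 2.

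The libraries ordered the genes in different ways. Ctsb, Ctsh, Ctsz, Lgmn, Ctsd and Ctsa had their highest CPM in aged replicate 2, whereas Ctss, Ctsc and Cst3 had theirs in aged replicate 3 and Ctsl in young replicate 3. Likeness was measured as the SD, over the 6 libraries, of the log2 ratio of 2 genes in CPM, a description in which the genes share library and depth. Among the 10 genes, Ctsb and Ctsh kept the steadiest ratio (SD 0.190), followed by Ctsc and Cst3 (0.226), and Ctsl and Ctsd the least steady (1.09). Of the 2175 genes averaging 50 CPM or more and present in all libraries, those with the steadiest ratio to Ctss were Psmb4 (SD 0.089), Cdc42 (0.137), Ly6e (0.167), Iscu (0.173) and Ssh2 (0.189). For Cst3 they were Hmgb1 (0.12), Trappc1 (0.135), Myl12b (0.147), Gm47428 (0.150) and Npc2 (0.152). Psmb4 is a proteasome subunit and Npc2 a lysosomal cholesterol carrier.

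Levels of different genes were compared in TPM, the deposited scale that divides by length. Cst3 was the highest of the 10 in every library, at 24360 to 30611 TPM in young and 31503 to 49668 TPM in aged CAMs, and by its mean over the 6 libraries ranked at 2 among all genes listed. Ctss came next, at 2740 to 3746 and 5958 to 8799 TPM, apart from both of its neighbours in each age group. Below it the young order was Ctsl, Ctsc, Ctsb, Ctsd, Ctsz, Ctsh, Ctsa and Lgmn, from 466 ± 321 down to 104 ± 4.97 TPM (SD, n = 3). There Ctsc stood above Ctsb and Ctsd above Ctsz without overlap, and the other neighbouring pairs overlapped. In aged libraries the order was Ctsb, Ctsc, Ctsd, Ctsl, Ctsa, Ctsz, Ctsh and Lgmn, from 1315 ± 1018 down to 240 ± 157 TPM, and every neighbouring pair below Ctss overlapped. In TPM, 8 of the 10 genes lay above the young range in all aged libraries, Ctsa and Cst3 being added to the 6 in CPM. The background was 10.1% of genes averaging 1 TPM or more and 16.0% of those averaging 50 CPM or more. The TPM scale itself lay higher in aged libraries: the median log2 difference of all genes was 0.22 in TPM and -0.02 in CPM.

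**Figure D3:**
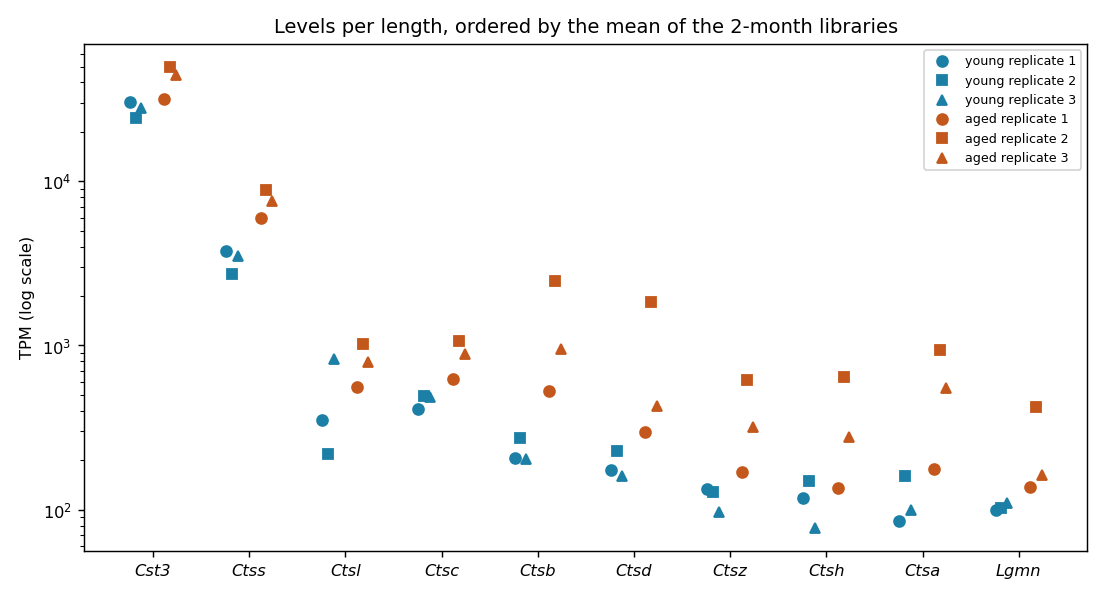
TPM of each gene in each library (vertical axis, log scale), genes ordered by the young mean. Cst3 and Ctss stand above the other 8 genes in all 6 libraries, and those 8 overlap one another more among aged libraries.

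The length deposited with each gene also differed by age for 2 of the 10. The files give a length in bases per gene and library; the header does not define it, and it varied between libraries for genes with several transcripts. For Ctsb it was 4633, 4532 and 4300 bases in young and 3016, 1935 and 2192 bases in aged libraries. GENCODE M21 lists for Ctsb a coding transcript of 4743 bases and retained-intron transcripts of 801 and 1269 bases, and the deposited values lie between these. For Ctsa it was 2120, 1908 and 2040 bases in young and 1556, 1076 and 1098 bases in aged libraries, among 16 listed transcripts of 378 to 3646 bases. Of the 1907 genes averaging 50 CPM or more whose length varied, 8.08% were shorter in every aged library, and 31 had an aged to young length ratio as low as that of Ctsa (0.615) or lower. The ratio of aged to young means was 2.03 in CPM and 5.77 in TPM for Ctsb, and 1.94 and 4.85 for Ctsa, whereas for Ctss, whose length was 1355 bases throughout, it was 1.85 and 2.24.

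**Figure D4:**
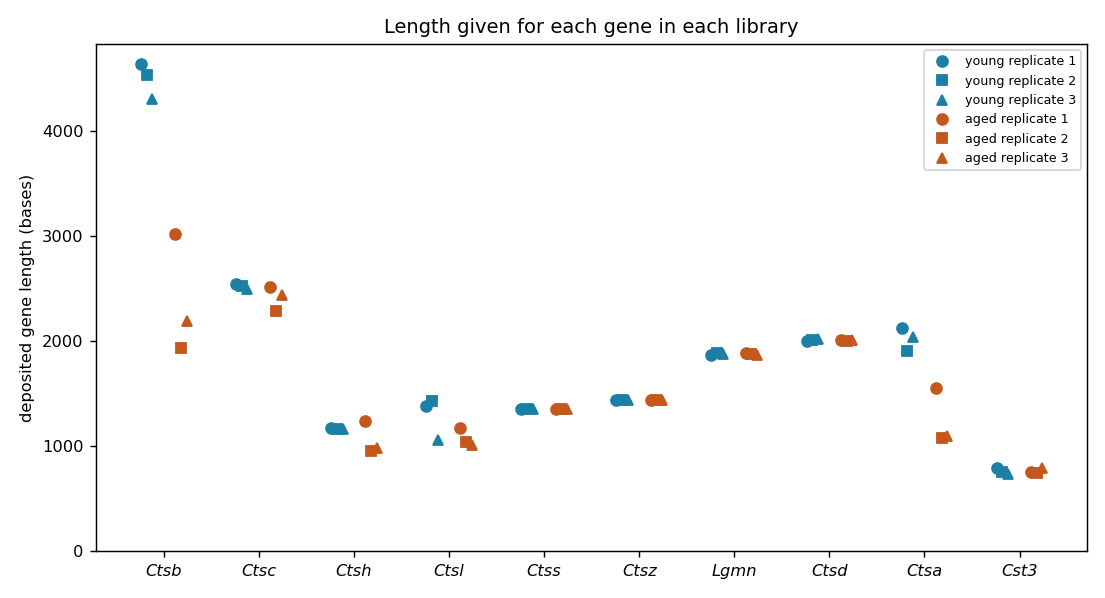
Gene length in bases as deposited for each library (vertical axis, from 0). Ctsb and Ctsa are shorter in all 3 aged libraries, while Ctss and Ctsz have 1 length in all libraries.

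The level of each protease was set against that of Cst3 by their log2 ratio in CPM within a library. Such a ratio does not depend on how libraries are scaled to one another. Ctsd and Ctsa, which are not cystatin targets, were kept among the 9 ratios, and theirs compare levels only. For Ctss the ratio was -1.98, -2.04 and -1.85 in young and -1.29, -1.36 and -1.53 in aged libraries. Every aged value lay above every young one, and the difference of 0.56 was several times the SD within a group (0.10 young and 0.13 aged). The exact two-sided permutation test gave p = 0.1, the smallest that 3 against 3 libraries allow, and 0.45 adjusted over the 9 ratios. Cst3 counts were thus 3.61 to 4.11 times those of Ctss in young and 2.44 to 2.90 times in aged libraries.

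Ctsz was the other protease whose ratio to Cst3 did not overlap, at -6.68, -6.31 and -6.83 in young and -6.28, -5.05 and -5.95 in aged libraries (difference 0.85, exact permutation p = 0.1, adjusted 0.45, n = 3 each). Without aged replicate 2 the Ctsz difference was 0.49, and that of Ctss was 0.55. Among 2174 genes averaging 50 CPM or more, 5.01% had a ratio to Cst3 that was higher in every aged library. The differences for the other 7 proteases ran from 0.02 for Ctsl to 1.16 for Ctsd, all with overlap between ages (exact permutation p from 0.2 to 0.9, adjusted 0.514 to 0.9). For Ctsd the overlap was small, young replicate 2 being at -4.93 and aged replicates 1 and 3 at -4.91 and -4.95, and aged replicate 2 stood apart at -2.89. Without that library the difference was 0.48 for Ctsd, 0.32 for Ctsb, 0.28 for Ctsa, 0.22 for Ctsh and 0.05 for Lgmn. In TPM, Ctsb and Ctsd joined Ctss and Ctsz in not overlapping (4 of 9, against 5.43% of the same 2174 genes on that scale).

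As a sum, the 7 cysteine proteases (Ctsb, Ctsc, Ctsh, Ctsl, Ctss, Ctsz and Lgmn) reached 5067, 4105 and 5287 TPM in young and 8103, 15024 and 10941 TPM in aged libraries. The Cst3 level was 6.04, 5.93 and 5.28 times that sum in young and 3.89, 3.31 and 4.04 times in aged libraries (mean 5.75 ± 0.410 and 3.74 ± 0.387, SD, n = 3 each). The groups did not overlap in this ratio. It is a description of transcripts, given with no test because the genes were chosen with results known. That choice also limits the exact permutation p-values of the 9 ratios above. Ctss made up 65.9% to 73.9% of the sum in young and 58.6% to 73.5% in aged libraries. Deposited lengths enter the sum through TPM, and the Ctsb length was shorter in every aged library. The part of length in the lower aged ratio of Cst3 to the sum was not tested.

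**Figure D5:**
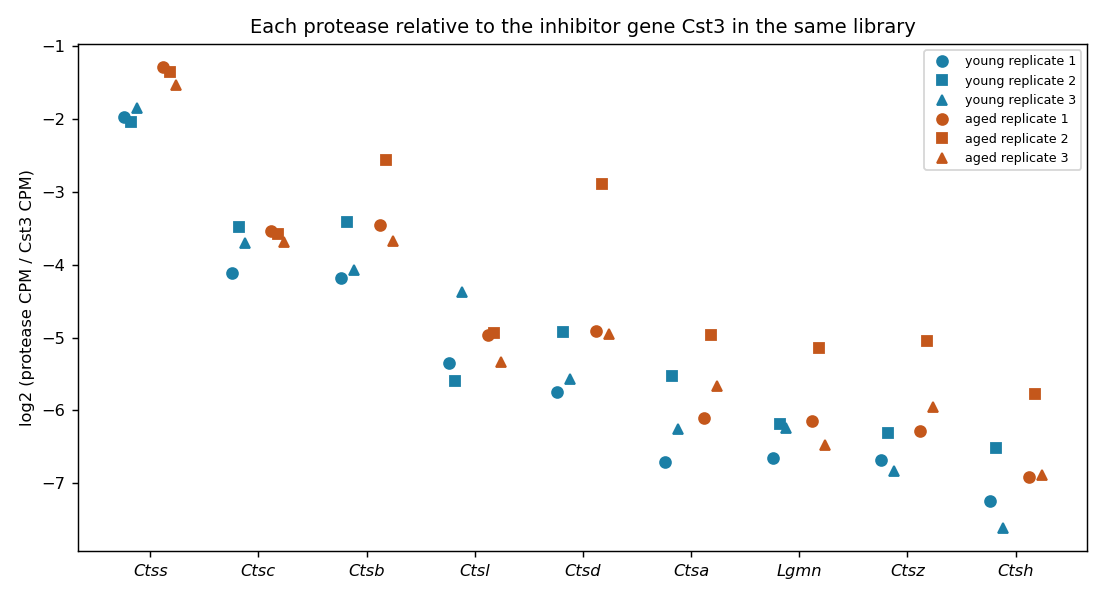
Log2 ratio of each protease to Cst3 in CPM within a library (vertical axis), proteases ordered by the young mean. Ctss and Ctsz lie higher in all aged libraries, and aged replicate 2 (squares) is the highest library for Ctsd, at -2.89.

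The other cathepsin genes were low. Of 14 listed, 2 passed the filter, Ctso and Ctsf, which encode cysteine proteases, neither past the test. Ctso was at 26.7 to 60.0 CPM in young and 24.6 to 73.0 CPM in aged libraries, and Ctsf at 8.37 to 18.4 and 14.7 to 32.7 CPM. Ctsg, whose product is stored in neutrophil granules, and Ctsw, a gene of killer lymphocytes, had 0 counts in every library, as did Ctsj and Cts6, which allows up to 3 counts per library or 0.112 CPM for counting error alone. Of 13 other cystatins and protease inhibitors, 5 were tested and 0 passed. Cstb, the intracellular cystatin B, had means of 450 ± 108 and 433 ± 160 CPM, a log2 fold change of -0.06 with an SE of 0.37. Cst7, cystatin F, a dimeric inhibitor that enters lysosomes, was named after its values were seen: young replicate 1 had 29.7 CPM and the other young libraries 0, while the aged libraries had 64.3, 57.9 and 56.6 CPM (edgeR adjusted p = 0.993). Serpinb6a lay lower in every aged library (141 ± 6.89 and 114 ± 32.5 CPM), as did 7.19% of all genes tested. Its nearest values were 137 CPM in young replicate 3 and 135 CPM in aged replicate 3, and aged replicate 2 was at 76.8 CPM. The log2 fold change was -0.30 with an SE of 0.38 (edgeR adjusted p = 0.993).

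Among 6 tested lysosomal peptidases outside the cathepsins, 0 passed over all genes, 2 had an unadjusted p under 0.05 and were higher (Scpep1 and Cpq), and the median log2 fold change was 1.25, beside 3.63% of all genes higher at that p and a median of -0.02. Scpep1, a serine carboxypeptidase related to cathepsin A, had 86.6, 99.6 and 76.1 CPM in the young libraries against 272, 492 and 408 CPM in the aged. The aged values lay several times above the young, with a log2 fold change of 2.16 and an SE of 0.35 (edgeR adjusted p = 0.378). In a fit of only the genes averaging 50 CPM or more, which called 0.868% of them higher and 0.274% lower, Scpep1 was called. Prcp, a prolyl carboxypeptidase, was lower in every aged library, at 79.6 to 103 CPM in young and 54.8 to 60.9 CPM in aged libraries (edgeR adjusted p = 0.958), and Tpp1, a tripeptidyl peptidase, was at 138 ± 12.4 and 175 ± 128 CPM.

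Of 15 tested genes listed around the sorting of lysosomal enzymes, not all of them sorting factors, 0 passed. Among them, 3 were higher in every aged library (7.54% of all genes were). These were Grn, the progranulin gene (594 ± 81.6 and 966 ± 268 CPM, log2 fold change 0.70, SE 0.31), Vps35 of the retromer (95.4 ± 35.1 and 192 ± 31.6 CPM, log2 fold change 1.01, SE 0.41) and Sort1, a sorting receptor at 9.04 ± 7.15 and 35.2 ± 4.34 CPM. Vps29, another retromer gene, was at 406 ± 8.69 and 304 ± 106 CPM, with a log2 fold change of -0.42 (SE 0.34). Vps26a, the other retromer core gene listed, was at 21.5 to 103 CPM and 71.5 to 289 CPM, with overlap (log2 fold change 1.58, SE 0.69). Of the 15 genes tested in this list, 3 had an edgeR unadjusted p under 0.05 with aged higher (Grn, Vps35 and Vps26a) and 0 with aged lower. Over all genes, 3.63% were higher at that p, and 8.59% of those averaging 50 CPM or more. None of the 4 transcription factor genes passed; Tfe3 was at 26.6 ± 22.4 and 30.1 ± 13.6 CPM, Mitf at 16.8 ± 13.1 and 27.7 ± 12.6 CPM, and Tfec, named after its values were seen, was lower in every aged library at 24.5 ± 16.4 and 6.73 ± 5.16 CPM. The partners of cathepsin A, Glb1 (7.98 to 24.0 CPM in young and 14.5 to 101 CPM in aged libraries) and Neu1 (23.0 to 27.4 and 16.0 to 33.4 CPM), did not pass. All 6 class II genes tested had an unadjusted p under 0.05 with aged higher, where 3.63% of all genes and 8.59% of those averaging 50 CPM or more did, and 0 passed over all genes. Cd74, the cathepsin S substrate, stood at 2880, 1798 and 2398 CPM in young libraries, and at 6232, 8896 and 14191 CPM in aged ones, all above the young range. H2-Eb1 (409 ± 112 and 1649 ± 348 CPM), H2-Ab1 (837 ± 404 and 2889 ± 900.3 CPM) and H2-DMa (194 ± 63.4 and 833 ± 184 CPM, SD, n = 3 each) had log2 fold changes of 2.01, 1.79 and 2.10; the first and second encode chains of the class II molecule and the third part of its peptide exchanger.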

How the data were processed

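Low-input RNA of sorted CAMs was amplified by a SMARTer kit, which does not mark strand, and sequenced as single reads, per the labels' protocols. Per the submitters' processing notes, the build was mm10 and the tools included DRAGEN, fastp and bcl2fastq 2.20; quantifier and annotation: not given in the sources used here. The deposited estimated counts per gene, per the file headers, were not scaled to depth; they were rounded to whole numbers here. The authors' deposited TPM values and lengths were used as given. Of 35598 identifiers, 35513 matched GENCODE M21 (mm10), the source of symbols and coordinates.

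Aged and young libraries were compared with edgeR 4.0.16 in R 4.3.3 (filterByExpr, TMM, robust quasi-likelihood F test, two-sided, no covariate), with p-values adjusted over all 10661 genes tested. Each SE was taken as the size of the log2 fold change divided by the root of its F value. The procedure was tested on simulated data. Ratios to Cst3 were compared by exact permutation over libraries. Alternatives used DESeq2 1.42.0, limma 3.58.1 (voom, and log2(TPM + 1) for a mean TPM of at least 1), other filters and size factors, a replicate block, and each library left out.

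The genes and lists were chosen with earlier results of these data known. From each related list, the text names called genes and the 2 most abundant. It also names up to 3 genes in each direction with the largest change, among those without overlap and averaging 50 CPM or more. Cst7 and Tfec, marked in the text, and Cpq, Sort1 and Vps26a were named outside this rule, with their values known. So were the cathepsin genes with 0 counts. For Ctss and Cst3 the text names the 5 genes with the steadiest ratio.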

Additional observations from a re-analysis of the deposited data

How the results depend on the processing

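edgeR called 1 gene higher and 0 lower. DESeq2's Wald test called 270 higher and 187 lower, edgeR without a filter 51 and 11, edgeR on genes averaging 50 CPM or more 19 and 6, and limma-voom 0 higher; leaving out a library gave 0 to 2 higher and 0 to 1 lower. Of the 10 genes described, 0 were called in any of these fits except the one without a filter, which called 3 higher: Ctsb (log2 fold change 1.05, adjusted p = 0.0393), Ctss (0.91, adjusted p = 0.0367) and Ctsd (1.77, adjusted p = 9.8e-06); the cause was not tested. The number at an unadjusted p under 0.05 and higher was 2 in DESeq2, 4 to 7 with a library left out, and 6 with the replicate block. The number higher in every aged library was 6 to 8 with a library left out. Fitted values stayed above 0 for all 10 genes in all settings except Ctsl, which ranged from -0.03 without young replicate 2 to 0.66 without young replicate 3 and was 0.95 on log2(TPM + 1). Ratios to Cst3 that did not overlap numbered 2, 4 in TPM, and 2 to 7 with a library left out (7 without young replicate 2, 4 without aged replicate 3). Without aged replicate 2 the ratio differences of Ctsd and Ctsz were 0.48 and 0.49. The Ctsl ratio difference ranged from -0.22 to 0.38 and that of Ctsc from -0.01 to 0.31 with a library left out. Among genes averaging 50 CPM or more, 1 lysosomal peptidase gene and 5 class II genes were called, against 0 and 0.

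Replicate numbers recur in both ages. The deviations of same-numbered libraries correlated at -0.0133, 0.0275 and 0.0788 across genes, and those of differently numbered libraries at -0.124 to 0.107. With 3 libraries per age this check cannot tell whether same-numbered libraries share a batch. With the replicate block, as without it, 1 gene was called higher. Depth was not limiting for the 10 genes, each with at least 4875 counts in every library. Few libraries and the spread within ages limit these comparisons.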
